A study of Mus musculus with 10 samples.

Results

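Nr2e1, Nr2f1, Nr2f2, Nr4a1, Nr4a2 and Nr4a3 encode 6 orphan nuclear receptors, which are transcription factors of the steroid receptor superfamily for which no ligand was known when they were named. Chromatin around them was examined in ATAC-seq peak lists from neural stem cell cultures of the adult mouse subependymal zone (SEZ), the germinal layer along the lateral ventricles. Members were every peak whose summit lay inside one of the 6 gene records or within 50 kb of it. This gave 462 of 759157 peaks, which merged into 64 of 137454 accessible regions. Of these 64 regions, 52 held a peak in 2 or more libraries, 45 in at least 5 of the 10 libraries and 31 in all 10, while 12 were seen in a single library. The 45 were tested for changes together with all other regions of the genome that reached 5 libraries, 70627 in number.

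Tlx, the product of Nr2e1, keeps adult neural stem cells self-renewing and acts largely as a repressor, recruiting histone deacetylases and the demethylase Lsd1 (Kdm1a) to target genes such as Cdkn1a. COUP-TFI (Nr2f1) and COUP-TFII (Nr2f2) bind direct repeats of the nuclear receptor hexamer and pattern the developing forebrain, where they also take part in the passage from neuron to glia production. Nur77 (Nr4a1), Nurr1 (Nr4a2) and Nor1 (Nr4a3) are immediate early genes, switched on rapidly by growth factors and depolarization, and their products bind as monomers to an extended hexamer, the NBRE. Nurr1 is best known for its role in dopaminergic neurons.

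Cultures came from 10-week-old wild-type (WT) mice and from mice lacking Cdkn1b, the gene for the cyclin-dependent kinase inhibitor p27 (p27KO), maintained on C57BL/6J. Proliferating neurospheres (PRO) grew in suspension in medium containing EGF (20 ng/ml) and FGF (10 ng/ml), and cells beginning to differentiate (DIFF) had spent 2 days on Matrigel with FGF followed by 24 h without mitogens in 2% serum, so that mitogens, substrate and serum changed together and their parts cannot be told apart. There were 3 libraries each of WT PRO and WT DIFF and 2 each of p27KO PRO and p27KO DIFF, made from 50000 cells each. The deposited lists held 76372 to 80179 peaks in WT PRO, 57534 to 88738 in WT DIFF, 83854 to 91801 in p27KO PRO and 67589 to 73220 in p27KO DIFF. The longest WT DIFF list was that of replicate 3, which stood apart from the other 2 of its group, with 61783 and 57534 peaks. A peak in Cdkn1b was called in 6 of 6 WT and 0 of 4 p27KO libraries. Promoter peaks of the neural stem and progenitor markers Sox2, Nes, Olig2, Slc1a3, Fabp7, Pax6, Egfr and Vim were called in all 10 libraries, whereas of 5 blood and microglial genes Ptprc, Cx3cr1 and Itgam had a promoter peak in 0 libraries, Csf1r in 9 and Aif1 in 10. The number of peaks on chromosome Y was 59 to 71 in WT PRO, 54 to 65 in WT DIFF, 40 to 58 in p27KO PRO and 26 to 32 in p27KO DIFF. It was thus lower in p27KO than in WT within each condition and also moved with condition. The part of this difference in the genotype comparisons was not tested. Each library counts as 1 replicate. The labels do not say whether libraries of a group came from separate animals, so the p-values measure the spread between these libraries, which may in part be technical.

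The regions are named by gene and by the distance of the summit from the start of the gene record, with downstream positions positive, and coordinates are on GRCm38. Sequences of 300 bases centred on the summit, plus strand, are shown for 4 of the regions called, namely the 3 whose call in one genotype held in every alternative fit and the one called lower in both genotypes, and for the Nr4a2 promoter region, and the 250 bases before the RefSeq start of Nr2e1 (GRCm38.p6) are shown on the gene's minus strand. Letters searched on both strands, and in capitals where found, were the NBRE (AAAGGTCA), the Tlx hexamer (AAGTCA), the nuclear receptor hexamer (AGGTCA), DR1 (a direct repeat of that hexamer with 1 base between its copies), AP-1 (TGANTCA), CRE (TGACGTCA), a Sox site (ACAANG), an E-box (CAGCTG) and the palindromic NFI site. The NBRE and DR1 letters contain the nuclear receptor hexamer.
Nr2f2 −15.1 kb, chr7:70381700-70381999: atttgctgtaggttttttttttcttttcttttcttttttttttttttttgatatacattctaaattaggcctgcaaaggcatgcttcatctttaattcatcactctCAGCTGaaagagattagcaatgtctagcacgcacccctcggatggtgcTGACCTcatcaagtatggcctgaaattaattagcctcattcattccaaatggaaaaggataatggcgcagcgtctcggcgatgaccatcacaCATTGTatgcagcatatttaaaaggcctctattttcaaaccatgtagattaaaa
Nr4a1 +6.2 kb, chr15:101260357-101260656: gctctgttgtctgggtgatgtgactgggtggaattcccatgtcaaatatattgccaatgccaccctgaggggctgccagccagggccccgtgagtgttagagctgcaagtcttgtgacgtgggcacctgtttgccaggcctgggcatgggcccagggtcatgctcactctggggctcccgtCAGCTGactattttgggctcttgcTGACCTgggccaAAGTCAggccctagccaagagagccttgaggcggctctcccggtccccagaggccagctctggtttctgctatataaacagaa
Nr2f1 +6.3 kb, chr13:78193295-78193594: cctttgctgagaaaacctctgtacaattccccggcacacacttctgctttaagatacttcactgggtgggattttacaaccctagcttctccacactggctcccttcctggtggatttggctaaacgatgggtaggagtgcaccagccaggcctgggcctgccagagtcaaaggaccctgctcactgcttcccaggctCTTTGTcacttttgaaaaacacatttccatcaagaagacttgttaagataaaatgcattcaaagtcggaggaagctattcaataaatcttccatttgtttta
Nr2e1 −30.6 kb, chr10:42614073-42614372: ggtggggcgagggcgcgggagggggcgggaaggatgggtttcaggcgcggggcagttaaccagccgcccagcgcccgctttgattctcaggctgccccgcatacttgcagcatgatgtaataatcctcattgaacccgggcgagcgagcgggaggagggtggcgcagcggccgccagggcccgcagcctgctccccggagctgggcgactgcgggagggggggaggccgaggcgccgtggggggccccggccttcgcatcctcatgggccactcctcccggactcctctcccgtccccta
Nr4a2 −0.2 kb, chr2:57124016-57124315: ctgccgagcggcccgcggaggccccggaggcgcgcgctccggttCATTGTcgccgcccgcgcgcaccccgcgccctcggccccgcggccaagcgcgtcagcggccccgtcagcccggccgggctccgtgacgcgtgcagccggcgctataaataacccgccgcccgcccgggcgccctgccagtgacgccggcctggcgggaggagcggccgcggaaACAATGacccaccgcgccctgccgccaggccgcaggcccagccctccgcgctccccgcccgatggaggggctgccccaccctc
Nr2e1 promoter, chr10:42583591-42583840: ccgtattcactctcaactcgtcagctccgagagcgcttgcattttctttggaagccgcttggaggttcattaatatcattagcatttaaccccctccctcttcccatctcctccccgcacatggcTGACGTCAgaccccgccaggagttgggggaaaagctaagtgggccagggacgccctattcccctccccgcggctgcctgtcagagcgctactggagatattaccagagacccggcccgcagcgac

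The Nr2f2 −15.1 kb window held 1 nuclear receptor hexamer, 1 Sox site and 1 E-box. The Nr4a1 +6.2 kb window held 1 Tlx hexamer, 1 nuclear receptor hexamer and 1 E-box, and the Nr2f1 +6.3 kb window 1 Sox site. None of these letters occurred in the Nr2e1 −30.6 kb window, which was instead rich in G and C (71.7%, with 28 CpG). A CRE, the palindrome bound by CREB family factors, was present in the Nr2e1 promoter, in 1 of 7 promoter sequences of the 6 genes and in 1.79% of 32851 mouse promoters of the same length. The sequence shown held no other of these letters. Of the 7, the Tlx hexamer was in 1, a promoter of Nr2e1 (15.1% of all), and the Sox site in 4 (41.2% of all). The remaining letters were in 0 of the 7. Over the 45 tested regions, the Tlx hexamer was found in 6 (13.3%, against 15.1% of 70509 tested regions), the nuclear receptor hexamer in 5 (11.1% against 15.1%), AP-1 in 3 (6.67% against 10.9%), the Sox site in 20 (44.4% against 50%) and the E-box in 8 (17.8% against 26.7%). The NBRE was found in 0 of the 45 regions and in 1.18% of all, DR1 in 0 and 0.0184%, and the NFI site in 0 and 0.128%. These are matches of letters within the windows and do not mark binding.

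Each region is described by its fold enrichment and its percentile. Fold enrichment is the MACS2 signal at the summit over the local background, as deposited, and the percentile is the place of that value within its own list, from 0 for the weakest to 100 for the strongest peak. Changes were tested on normal scores of the within-list rank with limma, with Benjamini-Hochberg adjustment over all 70627 regions, and are differences of normal scores ± SE. All 6 genes had accessible chromatin in every group, though not at the same strength. The windows together held 44 to 53 peaks per library in WT PRO, 42 to 48 in WT DIFF, 47 to 48 in p27KO PRO and 43 to 44 in p27KO DIFF. The Nr4a1 window was the most populated, with 17 regions of which 12 were tested, followed by Nr2f1 (14, 12 tested), Nr2f2 (11, 8 tested), Nr2e1 (8, 3 tested), and Nr4a2 and Nr4a3 (7 each, 5 tested).

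**Figure D1:**
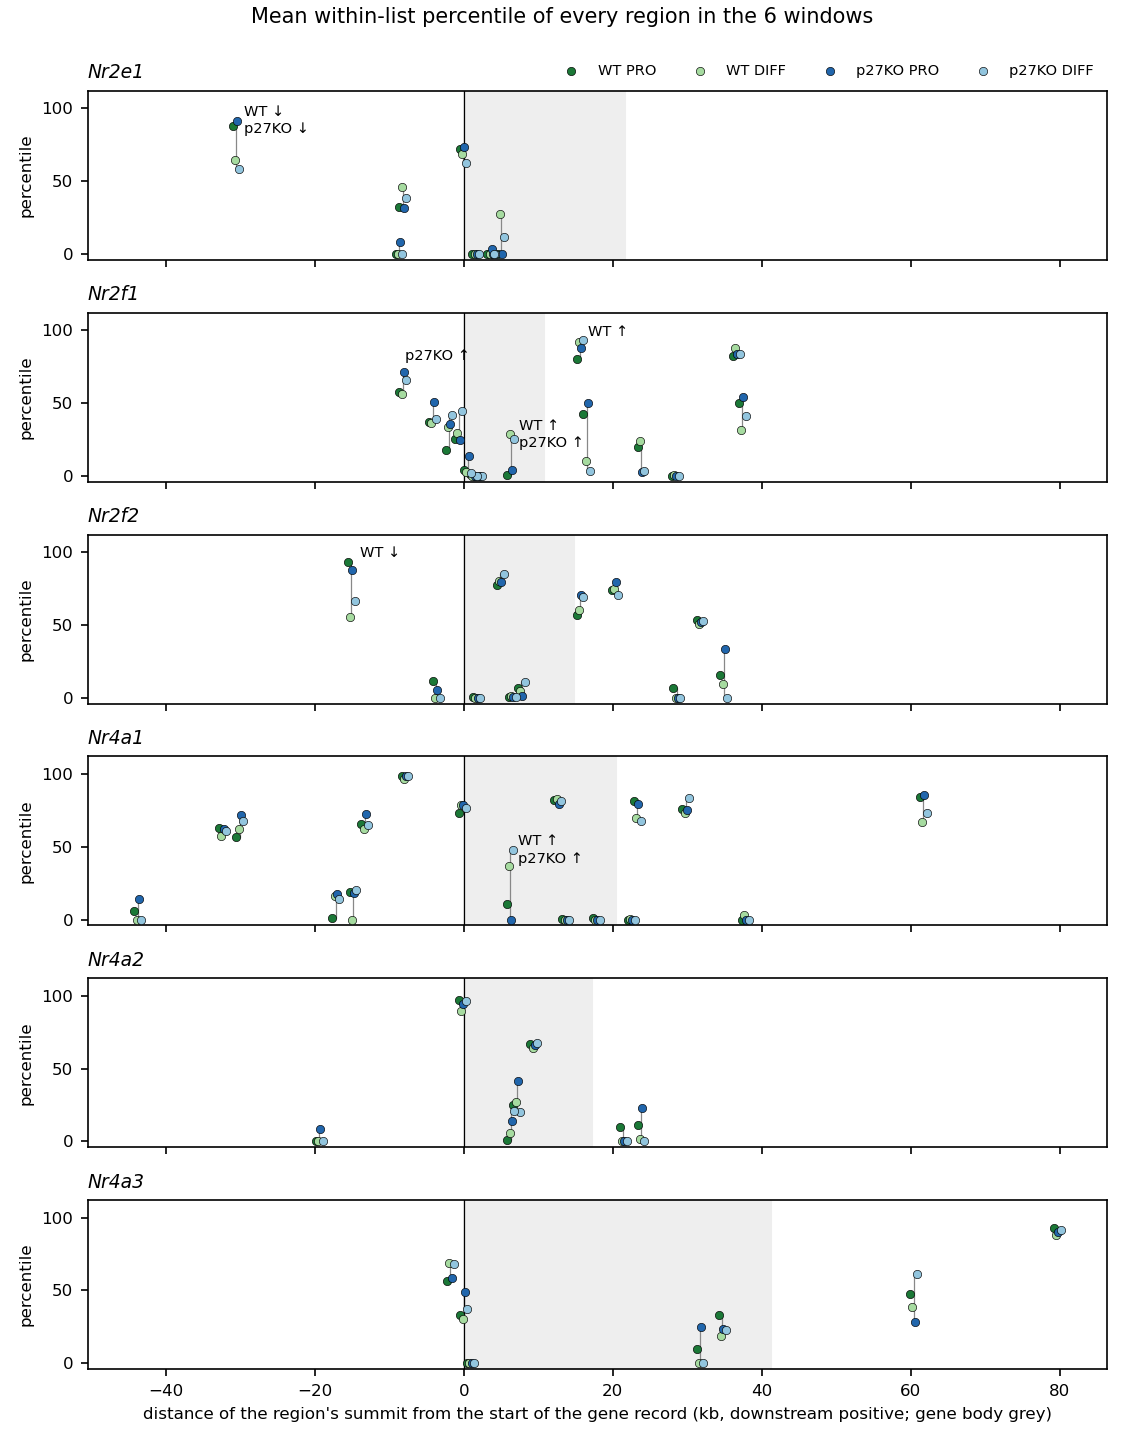
Every region in the 6 windows, by distance of its summit from the start of the gene record (kb, x axis) and mean percentile in each of the 4 groups (y axis, libraries without a peak counted as 0, points of a region set slightly apart sideways and joined by a grey line). Arrows mark regions higher or lower at DIFF at an adjusted p under 0.05. The 6 regions with arrows lie among 64 in all.

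The promoter regions chosen for the 6 genes lay at very different ranks, which depended in part on the region chosen. For each gene the tested region closest to the start of its record is given, which for Nr2f2 lay nearer to an alternative start. The Nr4a2 promoter region (−0.2 kb, chr2:57123302-57124574, summit 163 bp upstream of the start) was the strongest, at percentiles of 85.6 to 98.1 over the 10 libraries. Nr2f2 +4.9 kb (chr7:70360728-70362258, in an intron and 1254 bp upstream of an alternative start) stood at 73.5 to 89.0, and the Nr4a1 −0.2 kb region (chr15:101253839-101254634, summit 177 bp upstream) at 67.3 to 87.5, while the region at the alternative start of Nr4a1, +12.6 kb, ranged from 73.7 to 88.8. The Nr2e1 −0.1 kb region (chr10:42582730-42584489, summit 79 bp upstream) lay at 62.1 to 76.5. Its summit was also within 3 kb of a start site of the neighbouring gene Ostm1, so its signal cannot be assigned to Nr2e1 alone. The ranges of Nr2f2, Nr4a1 and Nr2e1 overlapped, and those of Nr2f2 and Nr4a1 also overlapped the range of Nr4a2. The Nr4a3 promoter region (chr4:48044314-48045576, summit 28 bp upstream) stayed below them at 25.0 to 52.9, and the Nr2f1 +0.5 kb region (chr13:78198993-78199574, summit 457 bp downstream, in untranslated exon sequence) was near the bottom of every list at 0.347 to 13.9. The nearest region to the start of the Nr2f2 record, +1.7 kb, had a peak in 2 libraries only and was not tested. Other regions near own start sites ranked differently. Nr2f2 +6.5 kb, 290 bp upstream of an alternative start, had group mean percentiles of 0.219 to 1.41 where every library had a peak. Group means were 24.9 to 44.5 at Nr2f1 −0.7 kb and 56.7 to 68.7 at Nr4a3 −1.8 kb.

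The promoter-proximal regions were also GC-rich. Within 3 kb of an own start site, the 17 tested regions had a median GC content of 67% and 29 CpG per 300 bases, against 60.7% and 18 in the 20379 promoter regions of all genes with a sequence. The other tested regions of the windows that were not promoters of neighbours had medians of 53.3% and 6, against 51% and 4 in all tested regions. Among the 45 tested regions, 4 were promoters of neighbouring protein-coding genes and not of the 6 genes, with 2 at Grasp, 1 at Atg101 and 1 at Stx17. The last of these, +79.7 kb from the start of Nr4a3 (chr4:48124392-48125535), was the highest-ranked region of the Nr4a3 window, at mean percentiles of 88.2 to 93.0. The highest-ranked region of the Nr4a1 window and of all 6 windows was not a promoter but an intergenic site 7.9 kb upstream of Nr4a1 (chr15:101246013-101246833), with a fold enrichment between 13.0 and 20.0 and a percentile between 95.2 and 99.5 in the 10 libraries.

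In WT cultures, regions around Nr2e1, Nr2f1, Nr2f2 and Nr4a1 changed at the onset of differentiation. Of the 45 tested regions 5 passed the threshold (11.1%), against 19.2% of all regions tested. The difference between these shares was not tested, and without WT DIFF replicate 3 the number was 8. Of all promoter regions 8.67% were called and of regions beyond 3 kb of a start site 23.5%, and the 28 member regions beyond own promoters had 4 called (14.3%). Of the 5, 2 were lower at DIFF (Nr2e1 −30.6 kb and Nr2f2 −15.1 kb) and 3 higher (Nr2f1 +15.6 kb, Nr2f1 +6.3 kb and Nr4a1 +6.2 kb), where the genome had 10.1% lower and 9.15% higher. The windows of 42 other nuclear receptor genes had 60 of 362 tested regions called (16.6%), 40 of them lower and 20 higher. Differences of normal scores had a median of 0.13 over the 45 regions and 0.03 over all regions.

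The sharpest fall was 15.1 kb upstream of Nr2f2 (chr7:70381770-70382257), in introns of the noncoding genes B130024G19Rik and Gm28258. Fold enrichment there was 14.0, 13.7 and 12.8 in the WT PRO libraries and 4.81, 5.32 and 8.04 in the WT DIFF libraries. In p27KO it was 10.5 and 14.9 at PRO and 6.62 and 8.80 at DIFF. PRO and DIFF did not overlap in either genotype, and the third WT DIFF library was the least reduced of its group. The WT change was −1.21 ± 0.22 (adjusted p = 0.0035) and it passed the threshold in all 18 alternative fits. The p27KO change was −0.67 ± 0.27 (adjusted p = 0.15), and it depended on single libraries, passing without p27KO PRO replicate 1 (−1.12, adjusted p = 0.044) and lying at −0.28 (adjusted p = 0.69) without p27KO PRO replicate 2. The difference between the genotypes in this change was 0.53 (95% interval −0.25 to 1.31, adjusted p = 1.00).

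A region 30.6 kb upstream of Nr2e1 (chr10:42613846-42614508), inside an intron of the neighbouring gene Ostm1, was lower at DIFF in both genotypes. Its fold enrichment was 14.7, 11.1 and 10.9 in WT PRO against 7.34, 5.55 and 7.41 in WT DIFF. In p27KO the values were 13.2 and 14.2 at PRO against 5.35 and 8.24 at DIFF. Every DIFF library lay below every PRO library. The change was −0.77 ± 0.24 in WT (adjusted p = 0.042) and −1.02 ± 0.29 in p27KO (adjusted p = 0.041). Both values sat close to the threshold. The WT call was lost in 13 of 18 alternative fits, including those without any 1 of the WT DIFF libraries (adjusted p = 0.11 without replicate 3), and the p27KO call in 11 of 18, including those without any 1 of the 4 p27KO libraries.

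Regions inside and beside Nr2f1 were higher at DIFF, and a neighbour of one of them had values in the other direction. At +6.3 kb (chr13:78193198-78193728, in an intron and 2928 bp downstream of an alternative start) a peak was called in 1 of 3 WT PRO libraries, with a fold enrichment of 2.74, and in 3 of 3 WT DIFF libraries, at 3.36, 4.10 and 4.47. In p27KO a peak was called in 1 of 2 PRO libraries, at 3.07, and in both DIFF libraries, at 4.48 and 3.59. Every DIFF value was above the PRO value of its genotype. The PRO peaks alone would not have reached the minimum of 5 libraries. The region was therefore tested only through the groups where it was high, and the fits below are no separate support for a change. Regions without a peak share the lowest normal score of a list. That score was −1.68 in WT PRO replicates 1 and 2 and −1.15, −1.07 and −1.76 in the WT DIFF libraries. In p27KO that score was −1.696 in PRO replicate 2 and −1.255 and −1.446 in the DIFF libraries. Its part in the changes at this region was not tested. The region rose by 1.13 ± 0.23 in WT (adjusted p = 0.0062, kept in all 16 alternative fits) and by 1.03 ± 0.28 in p27KO (adjusted p = 0.037, lost in 11 of 16, with an adjusted p of 0.31 without p27KO PRO replicate 2).

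The strongest site of the Nr2f1 window lay 15.6 kb downstream of the start (chr13:78183785-78184450, intergenic and close to the start of the antisense gene Gm38604). Its fold enrichment was 9.58, 9.90 and 10.9 in WT PRO and 12.4, 10.9 and 13.1 in WT DIFF, and in p27KO 12.3 and 12.3 at PRO and 14.2 and 14.7 at DIFF. On this scale the WT groups touched, while their percentiles (77.1, 77.6 and 85.4 against 94.0, 89.2 and 91.7) did not overlap. The WT change was 0.63 ± 0.19 (adjusted p = 0.036) and was lost in 9 of 18 alternative fits, with an adjusted p of 0.13 at most, but it held without WT DIFF replicate 3 (0.73, adjusted p = 0.043). The p27KO change was 0.47 ± 0.23 (adjusted p = 0.23). At the adjacent Nr2f1 +16.5 kb region (chr13:78183109-78183767, intergenic) the differences were −0.52 ± 0.23 in WT (adjusted p = 0.13) and −0.83 ± 0.28 in p27KO (adjusted p = 0.077). A peak was called there in all 5 PRO libraries but was missing from 1 WT DIFF library and 1 p27KO DIFF library. Without WT PRO replicate 1 the p27KO difference passed the threshold (−0.94, adjusted p = 0.042).

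Within Nr4a1, an intronic region at +6.2 kb (chr15:101260134-101260728) was higher at DIFF in both genotypes. In WT PRO a peak was called in 2 of 3 libraries, with a fold enrichment of 3.88 and 3.17, and in WT DIFF in 3 of 3, at 5.02, 3.46 and 5.29. In p27KO there was no peak in the 2 PRO libraries, and both DIFF libraries had one, at 4.84 and 6.25. The WT groups overlapped in fold enrichment and the p27KO groups were fully apart. The change was 1.00 ± 0.23 in WT (adjusted p = 0.011) and 1.78 ± 0.28 in p27KO (adjusted p = 0.0026). The lowest score, shared by regions without a peak, was −1.908 and −1.696 in the p27KO PRO libraries. In the p27KO DIFF libraries the lowest score was higher, at −1.255 and −1.446. The part of these lowest scores in the changes at this region was not tested. The p27KO call held in all 16 alternative fits and the WT call in 15, the exception being the fit without WT PRO replicate 2, the library without a peak (0.71, adjusted p = 0.061). The PRO peaks alone would not have reached the minimum of 5 libraries. The region was therefore tested only through the groups where it was high, and these fits are no separate support for a change. The difference between the genotypes in this change was 0.77 (95% interval −0.04 to 1.58, adjusted p = 1.00).

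**Figure D2:**
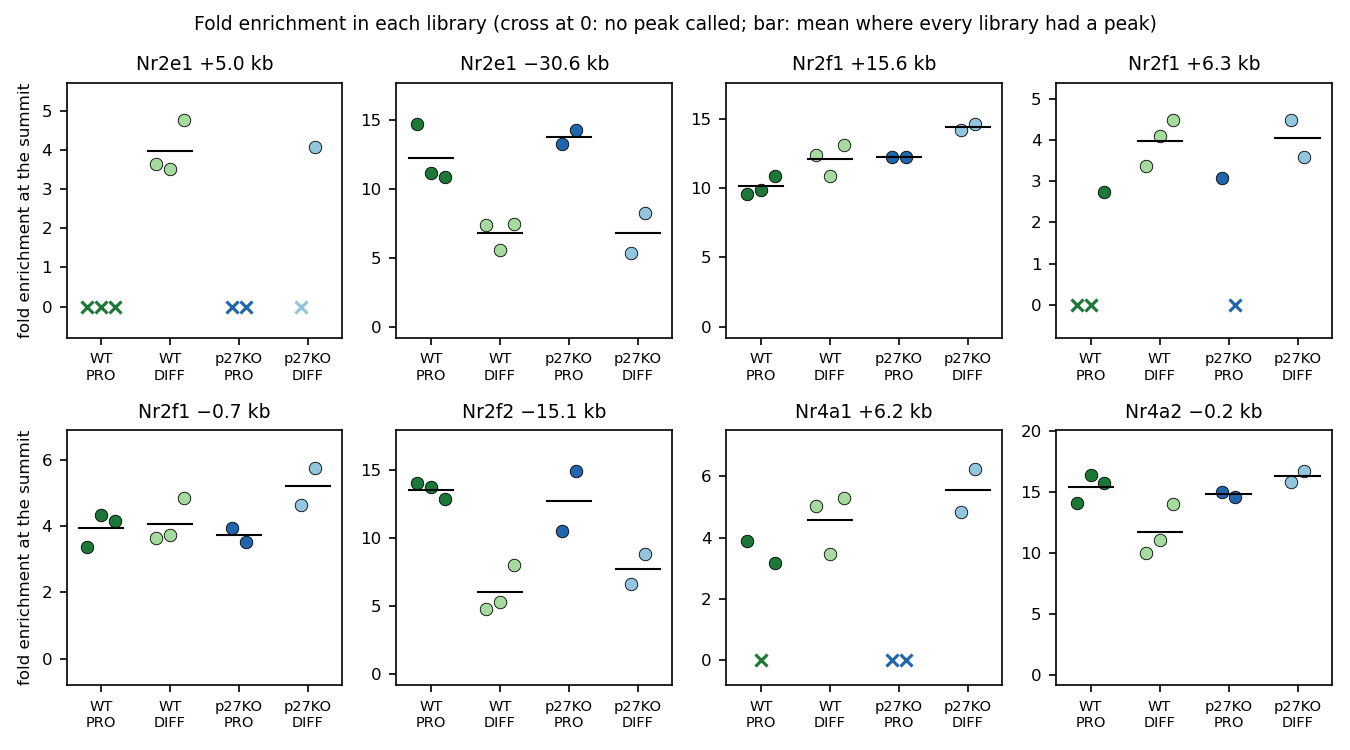
Fold enrichment at the summit (y axis) in each library of the 4 groups (x axis, 1 point per library in order of replicate) at the 6 regions called in either genotype, at Nr2e1 +5.0 kb and at the Nr4a2 promoter region. A cross at 0 means that no peak was called and bars are group means where all libraries had a peak. At Nr2e1 −30.6 kb and Nr2f2 −15.1 kb every DIFF point is below the PRO points of its genotype.

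In p27KO cultures 4 of the 45 regions passed the threshold (8.89%, against 12.3% of all regions tested), 1 lower and 3 higher, where the genome had 6.48% lower and 5.83% higher. The windows of the other nuclear receptor genes had 32 of 362 (8.84%). Of the 4 regions, 3 were the Nr2e1 −30.6 kb, Nr2f1 +6.3 kb and Nr4a1 +6.2 kb sites already described. The other was Nr2f1 −0.7 kb (chr13:78200222-78200791), in an exon of the antisense gene A830082K12Rik. Its fold enrichment was 3.94 and 3.51 in p27KO PRO and 4.65 and 5.75 in p27KO DIFF, and in WT 3.36, 4.34 and 4.17 at PRO and 3.63, 3.73 and 4.84 at DIFF. The p27KO groups were apart and the WT groups overlapped. The change was 0.83 ± 0.23 in p27KO (adjusted p = 0.037, lost in 11 of 18 alternative fits) and 0.39 ± 0.19 in WT (adjusted p = 0.18). The test of the genotype difference in this change gave 0.44 (adjusted p = 1.00).

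**Figure D3:**
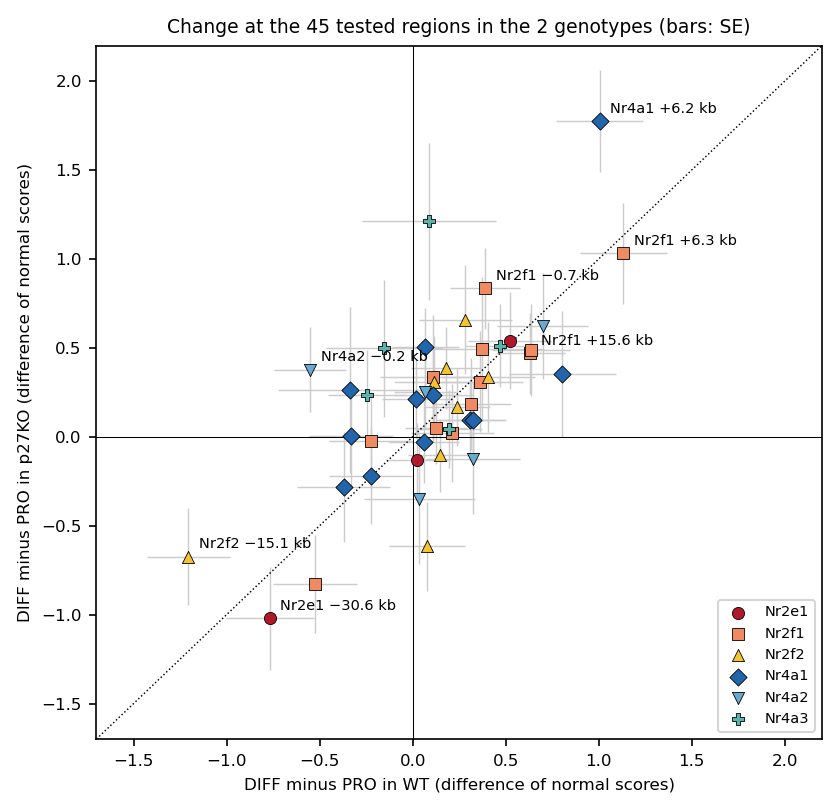
Change from PRO to DIFF in WT (x axis) and in p27KO (y axis) as differences of normal scores at the 45 tested regions, with SE bars, symbols by gene and the line of equal change dotted. Regions called in either genotype and the Nr4a2 promoter region are labelled. The labelled Nr2e1 and Nr2f2 regions are below 0 on both axes, Nr4a1 +6.2 kb and Nr2f1 +6.3 kb are above 0 on both, and the Nr4a2 promoter region is at −0.55 in WT and 0.38 in p27KO.

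Promoter regions of the 6 genes were counted separately. Of the 17 tested regions within 3 kb of an own start site, 1 was called in WT (5.88%, against 8.67% of promoter regions of all genes) and 2 in p27KO (11.8%, against 4.9%), all at Nr2f1 (+6.3 kb in both and −0.7 kb in p27KO). The WT count rested on WT DIFF replicate 3, without which Nr2f1 +0.5 kb, Nr2f1 −2.0 kb, Nr2f2 +6.5 kb and Nr4a2 +6.3 kb also passed. The WT difference was above 0 in 16 of the 17, with a median of 0.32 against 0.10 over 20382 promoter regions of all genes, and the p27KO difference in 15 of 17, with a median of 0.34 against 0.12. For weak peaks this score moves with the length of the list, because regions without a peak share the lowest rank and shorter lists have more of them. At Nr2f1 +0.5 kb, for example, WT percentiles were 3.16, 6.59 and 2.70 at PRO and 3.52, 3.96 and 0.800 at DIFF, while the difference of scores was 0.36 ± 0.23 (adjusted p = 0.32), and over regions with a peak in all 10 libraries the p27KO difference at this site, 0.31, was −0.47.

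At the Nr2e1 promoter, fold enrichment was 8.17, 9.69 and 7.84 in WT PRO, 6.67, 6.98 and 8.0 in WT DIFF, 8.98 and 8.55 in p27KO PRO and 6.62 and 7.58 in p27KO DIFF. The groups overlapped in WT, and in p27KO both DIFF libraries were below both PRO libraries. The change was 0.02 ± 0.17 in WT (95% interval −0.34 to 0.39, adjusted p = 0.94) and −0.13 ± 0.21 in p27KO (−0.58 to 0.32, adjusted p = 0.75). At Nr2f2 +4.9 kb the changes were 0.18 ± 0.19 and 0.39 ± 0.23 (adjusted p = 0.56 and 0.33). At the Nr4a1 −0.2 kb region they were 0.33 ± 0.17 and 0.09 ± 0.21 (adjusted p = 0.23 and 0.84), and at the region over its alternative start, +12.6 kb (chr15:101266253-101267321), 0.11 ± 0.21 and 0.23 ± 0.26 (adjusted p = 0.77 and 0.63). At the Nr4a3 promoter region they were 0.19 ± 0.18 and 0.04 ± 0.22 (adjusted p = 0.50 and 0.93), and 1.8 kb upstream of the Nr4a3 start 0.47 ± 0.19 and 0.51 ± 0.23 (adjusted p = 0.11 and 0.19). None of these passed.

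At the Nr4a2 promoter region the values of the 2 genotypes moved in opposite directions. Its fold enrichment was 14.1, 16.4 and 15.8 in WT PRO and 10.0, 11.1 and 14.0 in WT DIFF, so that every WT DIFF library was below the WT PRO libraries. In p27KO it was 15 and 14.6 at PRO and 15.8 and 16.7 at DIFF, so that both DIFF libraries were above both PRO libraries. The change was −0.55 ± 0.19 in WT (adjusted p = 0.071) and 0.38 ± 0.24 in p27KO (adjusted p = 0.36). The test of the genotype difference in this change gave 0.93 (95% interval 0.25 to 1.6, unadjusted p = 0.011), which did not pass after adjustment (adjusted p = 1.00).

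Presence and absence of peaks were compared as well, without ranks. Among the 52 regions seen in 2 or more libraries, 0 were present throughout WT PRO and absent throughout WT DIFF (4.32% of 99231 such regions of the genome), and 1 had the opposite pattern (1.86%). That region was Nr2e1 +5.0 kb (chr10:42578355-42578720), an intronic site 1748 bp downstream of an alternative start. No PRO library of either genotype had a peak there, while the 3 WT DIFF libraries had fold enrichments of 3.64, 3.52 and 4.77 and 1 of the 2 p27KO DIFF libraries had 4.09. With a peak in 4 libraries it was below the minimum for the test, and when the minimum was lowered to 2 libraries its WT change was 1.15 ± 0.20 (adjusted p = 0.0035) and its p27KO change 0.72 ± 0.24 (adjusted p = 0.10). It is named here after its values were seen. All its peaks were in DIFF libraries, so it reached the lowered minimum only through the groups where it was high. These p-values are therefore no separate support for a change. In p27KO, 3 of 52 regions were closed by this rule at DIFF (10.9% of the genome), namely Nr2f2 +34.9 kb, Nr4a2 +23.8 kb and Nr4a3 +31.7 kb. Their mean fold enrichments at PRO were 4.14, 3.63 and 3.76. By the same rule 1 was opened (3.32%), Nr4a1 +6.2 kb. The p27KO DIFF lists (67589 to 73220 peaks) were shorter than the p27KO PRO lists (83854 to 91801). The part of list length in these patterns was not tested. No region was closed in both genotypes (2.61% of the genome) or opened in both (0.959%).

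Between genotypes, no region around the 6 genes was called. At PRO 0 of 45 passed, with 1 at an unadjusted p under 0.05, against 0.034% of all regions (0.0311% lower and 0.00283% higher), and at DIFF 0 of 45, again with 1 unadjusted, against 0.0156%. The difference between genotypes in the change from PRO to DIFF was called at 0 of 45 regions, with 1 unadjusted, and at 0% of all regions. The region with an unadjusted p under 0.05 at PRO was Nr4a1 +6.2 kb, at −0.61 (95% interval −1.18 to −0.04, adjusted p = 0.88), a difference that was 0.014 among the top 57000 peaks of each list, and that at DIFF was the Nr4a2 promoter region, at 0.51 (0.03 to 0.99, adjusted p = 0.99). For the Nr2e1 promoter the genotype difference was −0.04 at PRO (−0.45 to 0.37) and −0.19 at DIFF (−0.61 to 0.22). The size of the largest differences elsewhere was −0.24 at Nr2e1 −8.2 kb and −0.62 at Nr2f1 +23.8 kb, both at PRO, −0.45 at Nr2f2 +34.9 kb at DIFF and −0.74 at Nr4a3 +60.4 kb at PRO. In the last of these, 1 of 2 p27KO PRO libraries had no peak, and without that library (replicate 2) the difference was 0.02.

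**Figure D4:**
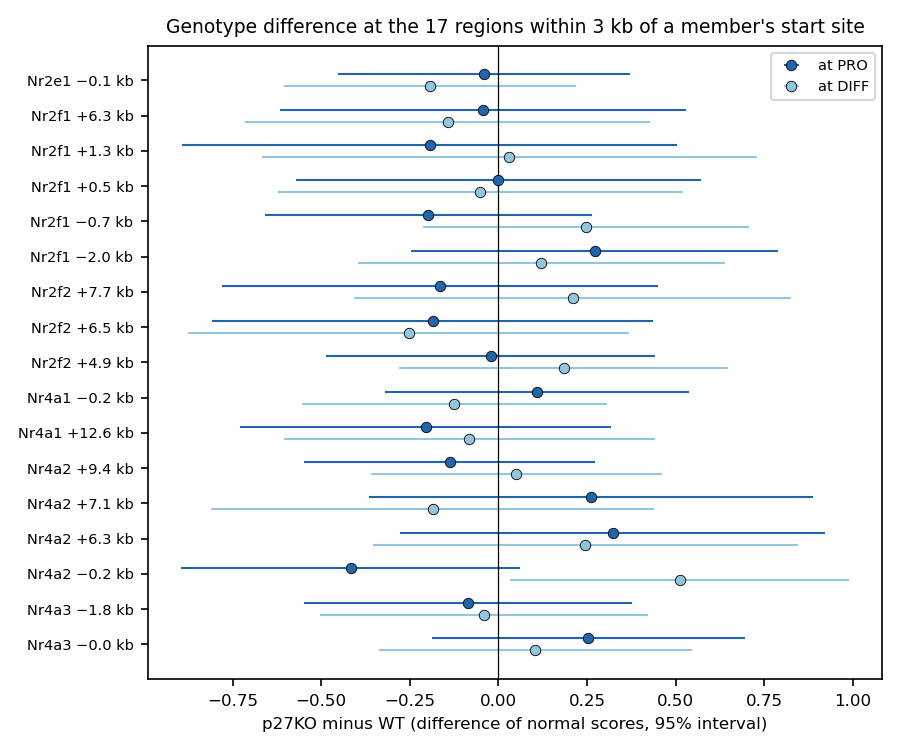
Difference of normal scores, p27KO minus WT (x axis), at PRO and at DIFF for the 17 tested regions within 3 kb of a start site of one of the 6 genes (y axis), with 95% intervals that are not adjusted for the number of regions. All but 1 of the 34 intervals include 0, the exception being the Nr4a2 promoter region at DIFF.

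Promoters of related genes were compared with the same test, under which 8.67% of promoter regions of all genes were called in WT and 4.9% in p27KO. Of 42 other nuclear receptor genes, 39 had a promoter region and 33 were tested. In WT, 2 were lower at DIFF and 0 higher, namely the oestrogen receptor gene Esr2 (−1.03 ± 0.20, adjusted p = 0.0045) and the oestrogen-related receptor gene Esrrg (−0.65 ± 0.19, adjusted p = 0.031), and in p27KO Esr2 alone was called (−0.93 ± 0.25, adjusted p = 0.030). Of 17 partners and targets of Tlx, all tested, 0 passed in WT and 1 in p27KO, the deacetylase gene Hdac1 (0.71 ± 0.21, adjusted p = 0.047). Among those that did not pass, the change in WT was 0.31 ± 0.19 at Kdm1a and 0.32 ± 0.25 at Cdkn1a. Of 20 immediate early genes 19 were tested, and 2 were higher at DIFF in WT, Ier2 (0.68 ± 0.17, adjusted p = 0.016) and Npas4 (0.93 ± 0.24, adjusted p = 0.021), and 1 in p27KO, Npas4 (1.24 ± 0.30, adjusted p = 0.020). Differences had medians of 0.04, 0.22 and 0.31 over the 3 lists in WT and 0.14, 0.27 and 0.19 in p27KO, against 0.10 and 0.12 over promoter regions of all genes. Between genotypes 0 promoters of the 3 lists were called.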

How the data were processed

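ATAC-seq was made from 50000 cells per library in 4 groups. The authors trimmed reads with cutadapt and Trimmomatic, aligned them with Bowtie2 to GRCm38 (mm10) flagged duplicate reads in Picard and ran MACS2 in narrow mode on each library at an FDR of 0.05, without pooling; versions are not given in the sources used here. The deposited lists give fold enrichment at the summit (a ratio to local background), −log10 p-values and −log10 q-values, positions and an integer score, with no read counts, so that the depth behind a peak is unknown and alignments were not used here. List length can move with depth and quality, and values were therefore compared as ranks within a list. Ranks do not remove the effect of list length, because regions without a peak are tied lowest.

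Peaks of all lists that overlapped by at least 1 bp were merged, and each region took the summit of its highest peak. Regions present in 5 or more libraries had their highest fold enrichment ranked within each list, regions without a peak tied lowest, and ranks turned into normal scores. limma 3.58.1 in R 4.3.3 fitted 1 mean per group over all 10 libraries with a shared spread, and p-values were adjusted by Benjamini-Hochberg over all tested regions, with a threshold of 0.05. The fit was run on simulated data without tied lowest ranks and with changes larger than those called in WT. It was therefore not tested under the conditions of those calls. Start sites came from GENCODE M21, promoters were summits within 3 kb of one, and promoter sequences came from RefSeq on GRCm38.p6, where all 6 genes matched.

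The members, gene lists and motifs were chosen with earlier results of these data known. Regions named were, for each gene, the one nearest its start, the highest-ranked one, those called in WT (at most 3 each way) or in p27KO alone (at most 2 each way), and the one that differed most between genotypes; other regions with values are promoters and regions named after their values were seen. Alternatives were ranking by −log10 p, other minimum numbers of libraries, the top 57000 peaks, a −log10 q of at least 5, an overlap of 100 bp, windows of 10 and 100 kb, a fit of the compared groups only, a replicate block and leaving out each library. Replicate numbers were not used to pair samples in the main fit.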

Additional observations from a re-analysis of the deposited data

Results flagged for a closer look

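The Nr4a2 promoter region moved in opposite directions in the 2 genotypes in every library: all 3 WT DIFF libraries ranked below the WT PRO libraries, and both p27KO DIFF libraries above the p27KO PRO libraries. The difference between the genotypes in the change from PRO to DIFF was 0.93 normal-score units (unadjusted p = 0.011, limma), and it did not pass adjustment over all regions (adjusted p = 1.00). Without WT DIFF replicate 3, whose list was the longest of its group, the WT change at this region was −0.61 (adjusted p = 0.097), and without WT PRO replicate 1 it passed the threshold (−0.73, adjusted p = 0.039). Over all fits without 1 library it lay between −0.73 and −0.47.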

How the results depend on the processing

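The number of regions called in WT, 5, was 3 when only regions with a peak in all 10 libraries were tested, 3 with a window of 10 kb and 3 to 8 when 1 library was left out. The highest of these, 8, came without WT DIFF replicate 3, which added Nr2f1 +0.5 kb, Nr2f1 −2.0 kb, Nr2f2 +6.5 kb and Nr4a2 +6.3 kb and removed Nr2e1 −30.6 kb, and 3 came without WT PRO replicate 2, WT DIFF replicate 1 or 2, or p27KO PRO replicate 1 or 2. The number called in p27KO, 4, was 1 when ranked by −log10 p, 1 with a minimum of 2 libraries, 1 over regions with a peak in all 10 libraries, 2 with a −log10 q of at least 5, 2 in a fit of the compared groups only and 1 to 4 when 1 library was left out, with 1 or 2 without WT PRO replicate 2 or 3, p27KO PRO replicate 2 or either p27KO DIFF library. Regions opened in both genotypes, 0, were 2 among the top 57000 peaks (Nr2f1 +6.3 kb and Nr4a1 +6.2 kb), and 0 to 1 when 1 library was left out, with 1 (Nr2e1 +5.0 kb) without p27KO DIFF replicate 1. The causes were not tested. Of the changes called, Nr2f2 −15.1 kb and Nr2f1 +6.3 kb in WT and Nr4a1 +6.2 kb in p27KO passed in every alternative fit in which they could be tested. Nr2f1 +6.3 kb and Nr4a1 +6.2 kb reached the minimum of 5 libraries only through the DIFF groups, where they were high. Their passing is therefore no separate support for a change.

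None of the changes that turned sign was called with the settings of the report, though Nr2f1 +0.5 kb in WT was called without WT DIFF replicate 3 (0.77, adjusted p = 0.024). Ranked by −log10 p, the WT change was −0.071 at Nr2e1 −0.1 kb, −0.0013 at Nr2f1 +0.5 kb, −0.14 at Nr2f2 +4.9 kb and −0.0097 at the Nr4a3 promoter region, and the p27KO change −0.26 at Nr2f1 +0.5 kb and −0.046 at the Nr4a3 promoter region. Over regions with a peak in all 10 libraries, the WT change was −0.023 at Nr2e1 −0.1 kb and the p27KO change −0.47 at Nr2f1 +0.5 kb, −0.0068 at Nr4a1 −7.9 kb and −0.10 at the Nr4a3 promoter region. Among the top 57000 peaks the genotype difference at PRO was 0.014 at Nr4a1 +6.2 kb. When 1 library was left out, the WT change was −0.042 to 0.094 at Nr2e1 −0.1 kb, the p27KO change −0.27 to 0.27 at Nr4a1 −7.9 kb and −0.045 to 0.13 at the Nr4a3 promoter region, and the genotype difference at PRO −1.50 to 0.025 at Nr4a3 +60.4 kb.

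Deviations of same-numbered libraries from their group means had correlations of −0.14 to 0.06 over regions, and those of differently numbered libraries −0.08 to 0.14. Between WT PRO and WT DIFF, same-numbered pairs had 0.057, 0.065 and 0.033, and differently numbered pairs −0.051 to −0.005. These small values do not settle whether the numbers pair samples, and the main fit did not pair them. With the replicate block 3 regions were called in WT and 1 in p27KO. With the 2 numbers of p27KO DIFF exchanged, chosen after seeing the data, the replicate block gave 2 in p27KO. With 2 or 3 libraries a group and no read depth, small changes cannot be resolved, and at Nr2e1 −0.1 kb, for example, the 95% interval of the p27KO change ran from −0.58 to 0.32.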

Other observations

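Over the 10 libraries, the promoters of protein-coding genes whose normal scores moved most like those of the 6 genes were found among 14001 genes. These are Pearson correlations over libraries that share list length and group, given as a description. For Nr2e1 they were Tmem26 (r = 0.93) and Mmp25 (0.90), and for the Nr4a2 promoter region Higd1a (0.93) and Rasgrf1 (0.93). For Nr4a1 +12.6 kb they were Lats1 (0.96) and Fign (0.93), and for the Nr4a3 promoter region Lrriq3 (0.94) and Lama1 (0.93). For Nr2f1 +0.5 kb they were Crim1 (0.97) and mt-Nd5 (0.97), and for Nr2f2 +6.5 kb Gria2 (0.98) and AW822073 (0.97). The mt-Nd5 region (chrM:10718-16188) is mitochondrial DNA and not a promoter of a nuclear gene. Nr2f1 +0.5 kb and Nr2f2 +6.5 kb lay near the bottom of the lists. Correlations of 0.9 or more were found with 94 genes for Nr2f1 +0.5 kb and 35 for Nr2f2 +6.5 kb, against 2 to 11 for the other 4 genes.

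Peaks at promoters of genes of other cell types were called in part. Those of the ependymal gene Foxj1, the oligodendrocyte gene Mbp and the endothelial gene Kdr were called in all 10 libraries, Tek in 0, Cdh5 in 1, Dcx in 1 and Mog in 1. The endothelial gene Pecam1 had a promoter peak in 5 of 5 PRO and 0 of 5 DIFF libraries, and its part in the changes above was not tested.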
